A study of Mus musculus with 8 samples.

Results

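The genes described are *Dot1l* and 9 genes whose proteins work with *Dot1l* or in the super elongation complex, namely *Mllt1*, *Mllt3*, *Mllt6*, *Mllt10*, *Aff1*, *Aff4*, *Ell*, *Ell2* and *Eaf1*. They were chosen by symbol and not by a measured value, though with earlier results of these data known. All 10 were found among the 25485 genes of the deposited table of normalized values and among the 53801 genes of the count table. RNA was sequenced from Lgr5-GFP+ intestinal crypt cells of 8 mice, 4 labelled β-catGOF; Mll1-/- (knockout) and 4 labelled β-catGOF; Mll1+/- (control), and the comparison asks what the loss of the second Mll1 allele changes in stem cells with activated β-catenin.

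All 8 mice carried the β-catenin gain-of-function allele, the floxed Mll1 allele and Lgr5-EGFP-IRES-CreERT2, in which the *Lgr5* locus drives both the green reporter and the inducible Cre. The controls therefore had an activated Wnt pathway and had lost 1 copy of Mll1 themselves, and neither a wild-type group nor a group with 2 intact Mll1 alleles was analysed here. Recombination was induced at 4 to 6 weeks of age with 50 mg/kg tamoxifen on 3 days. Crypt cells positive for Lgr5-GFP were sorted 10 days later, after staining for EpCAM, CD45 and CD24 and for dead cells. The sort selected cells by GFP and not by recombination, so each library may hold cells that kept an intact allele. Libraries were made by a Smart-seq2 protocol, which copies full-length messenger RNA and carries no molecular identifiers.

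Mll1 (gene symbol *Kmt2a*) is a histone H3K4 methyltransferase that is best known from leukaemias, where chromosome translocations join its N-terminal part to a partner protein. The most frequent partners belong to one transcription machinery. *Dot1l* methylates lysine 79 of histone H3 on transcribed genes and is recruited through AF10 and AF9 family proteins, while the super elongation complex brings the kinase P-TEFb to paused RNA polymerase II on a scaffold of AFF proteins with ELL elongation factors. In normal tissue, the intestine included, these proteins act without a fusion, and their genes are transcribed in most cell types.

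The Mll1 gene itself was examined first, as the gene that the genotypes target. *Kmt2a* stood at 59.5, 62.6, 78.5 and 53.5 CPM (the read count of a gene relative to the effective total of its library under TMM scaling) in Mll1-/- replicates 1 to 4 and at 50.2, 64.9, 51.2 and 48.9 CPM in Mll1+/- replicates 1 to 4. The means were 63.5 ± 10.7 and 53.8 ± 7.45 CPM (SD, n = 4 each), and the log2 fold change of 0.24 did not pass the threshold used throughout, an adjusted p under 0.1 (SE 0.17, edgeR quasi-likelihood test, adjusted p = 0.710). The mean level of *Kmt2a* was thus not lower in the libraries labelled Mll1-/-. Counts over a whole gene do not separate the floxed exons from the rest of the transcript, so they check the labels in neither direction. Every statement below on genotype refers to the libraries as labelled. *Ctnnb1*, which encodes β-catenin, had a mean of 179 ± 18.0 CPM in the Mll1-/- and of 167 ± 20.5 CPM in the Mll1+/- libraries.

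The libraries held 14468751 to 16847793 counts on genes, with 17.1% to 30.1% of them on mitochondrial genes. *Lgr5* lay between 215 and 308 CPM and *Epcam* between 1255 and 1697 CPM in every library, whereas *Ptprc*, the gene for CD45, did not exceed 0.957 CPM. Summed marker levels differed between the genotypes in several lists. Goblet markers summed to 249 to 596 CPM in the Mll1-/- and 110 to 253 CPM in the Mll1+/- libraries, Paneth markers to 988 to 1970 and 1668 to 4408 CPM, enterocyte markers to 14.7 to 25.3 and 48.5 to 77.2 CPM, and enteroendocrine markers to 2.23 to 7.36 and 5.78 to 47.3 CPM. Of the markers tested in these lists, 5 of 5 goblet markers lay above 0 on the log2 scale, and 5 of 5 Paneth, 4 of 4 enterocyte and 4 of 4 enteroendocrine markers lay below 0, with 0 past the threshold. Stem cell markers, of which *Olfm4* makes up most, summed to 10060 to 16650 and 22260 to 26610 CPM. Their directions were mixed, with 2 above and 4 below 0 and 0 past the threshold. The log2 fold changes ran from -0.87 in *Slc12a2* to 0.44 in *Axin2*, and that of *Lgr5* was -0.06. Leukocyte markers stayed at 1.53 to 3.71 and 2.57 to 6.82 CPM, and stroma and endothelium markers at 4.37 to 7.03 and 4.78 to 6.82 CPM. In such bulk libraries fewer cells of a type and less RNA per cell cannot be told apart, and the part of these marker shifts in the values below was not tested. Mll1-/- replicate 3 stood apart: its highest Spearman correlation across genes with any other library was 0.902, against 0.931 to 0.951 for the other 7. Library numbers in the column headers form 2 series of 4 libraries, each with replicates 1 and 2 or replicates 3 and 4 of both genotypes. *Xist* exceeded the summed Y-linked genes in 2 of 4 Mll1-/- and 3 of 4 Mll1+/- libraries, and in the first number series in 0 of 2 and 2 of 2, so that in this series genotype and sex cannot be told apart.

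None of the 10 genes passed the test between genotypes. In the edgeR fit over 16445 genes, 14 genes (0.0851%) had an adjusted p under 0.1 and none of these was *Dot1l* or a gene of the complex. The lowest adjusted p among the 10 genes was 0.474. An unadjusted p under 0.05 was reached by 1 of them, *Mllt3*, compared with 9.15% of all tested genes. In no case did all 4 libraries of one genotype lie above the 4 of the other, which 6.28% of tested genes did. DESeq2, run as a second test on the same genes, called 406 genes (2.47%) and again 0 of the 10. Of the 10 log2 fold changes 5 were above and 5 below 0. Their median was 0.02, and the median of their sizes was 0.19, beside 0.01 and 0.28 over all tested genes. The depth behind these values was 47 to 1497 counts per gene and library. With a median standard error of 0.24 on the log2 scale, small differences were not detectable at this replication.

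**Figure D1:**
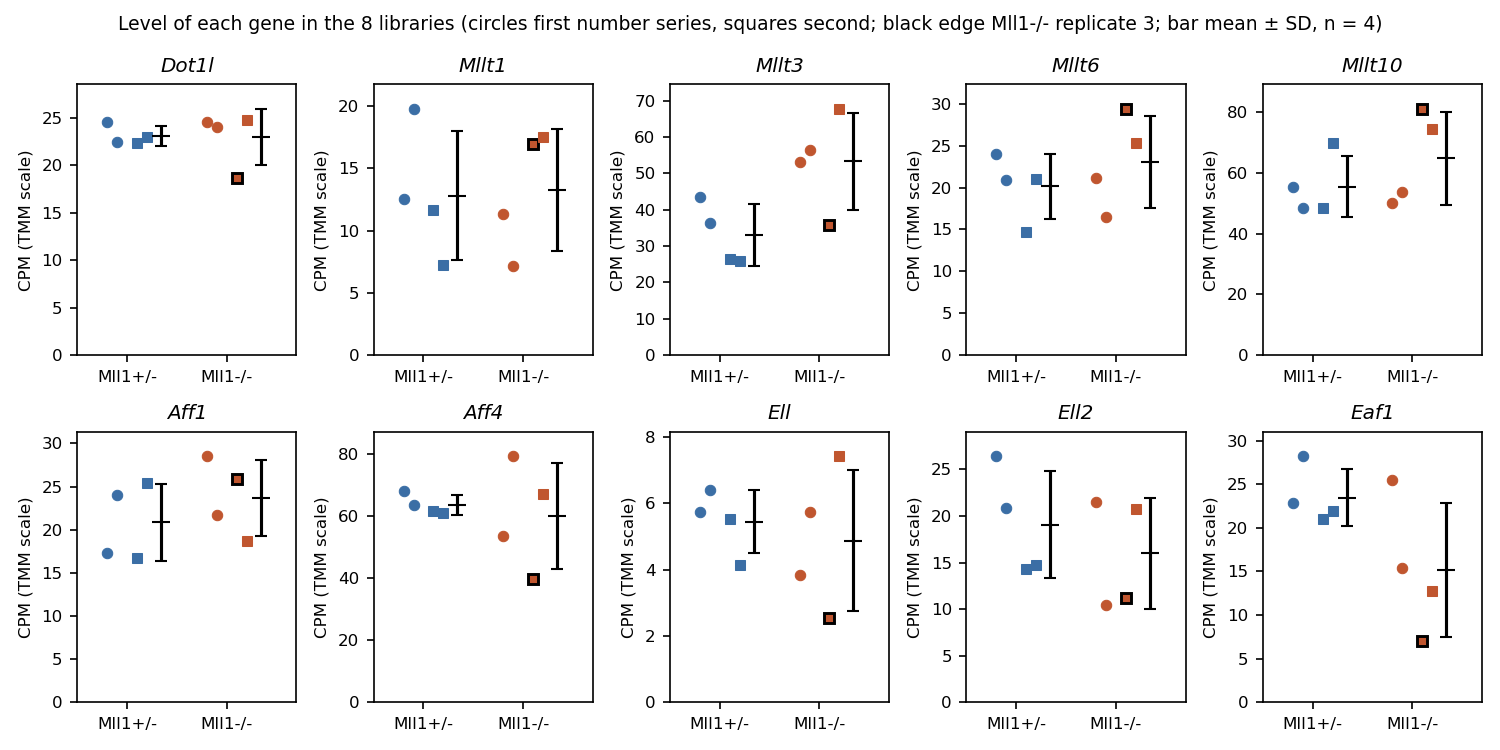
Level of each of the 10 genes in CPM on the TMM scale (y axis, from 0) in the 4 Mll1+/- (blue) and 4 Mll1-/- (orange) libraries. Circles are replicates 1 and 2 and squares replicates 3 and 4, a black edge marks Mll1-/- replicate 3, and bars give the mean ± SD. The genotypes overlap in all 10 panels, least in *Mllt3* and *Eaf1*.

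*Dot1l*, the only known H3K79 methyltransferase of mammals, was the most even of the 10 genes (ENSMUSG00000061589, GRCm38 chromosome 10, 80755206 to 80795461, plus strand). Its level was 24.5, 24.0, 18.6 and 24.8 CPM in the Mll1-/- libraries and 24.5, 22.4, 22.3 and 23.0 CPM in the Mll1+/- libraries. All values but that of Mll1-/- replicate 3 lay within 22.3 to 24.8 CPM. Mean levels were 23.0 ± 2.93 and 23.1 ± 1.03 CPM (SD, n = 4 each). The corresponding log2 fold change was -0.01 (SE 0.17, adjusted p = 0.996). The 95% interval of this difference reached from -0.39 to 0.38, which is 0.764-fold to 1.30-fold. Over the 8 libraries the coefficient of variation was 8.82%. Counting error alone would give 5.24% at this depth, the median over all tested genes was 31.6%, and 1.51% of tested genes varied less. Without Mll1-/- replicate 3, its lowest library, the coefficient of variation was 4.44%. A lower value was fixed in advance by the choice of that library. At 4.44% it lies below the counting error, so it says nothing further on the evenness of the gene. The genotype difference was 0.05 within the first and -0.07 within the second number series.

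Among 8914 genes with a mean of at least 10 CPM, the pattern closest to that of *Dot1l* over the 8 libraries was that of *Utp20*, a component of the machinery that processes ribosomal RNA, at a root mean square difference of 0.03 in centred log2 CPM. *Rbm27*, which encodes an RNA-binding protein, and *R3hdm1* followed at 0.05 and 0.06. *Utp20* ranged from 31.6 to 42.1 CPM. Like *Dot1l*, it had its lowest value in Mll1-/- replicate 3. All 3 genes were picked by their likeness to *Dot1l* in these same libraries, so a shared low library follows from the choice. No link between these genes and *Dot1l* was tested.

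*Mllt1* and *Mllt3* encode ENL and AF9, related readers of acylated histones through a YEATS domain that can bind either *Dot1l* or the AFF scaffold. Their levels behaved differently. *Mllt3* (ENSMUSG00000028496, chromosome 4, 87769925 to 88033364, minus strand) had 53.2, 56.6, 35.8 and 67.7 CPM in the Mll1-/- libraries and 43.5, 36.4, 26.5 and 25.8 CPM in the Mll1+/- libraries. Of the Mll1-/- libraries 3 lay above every Mll1+/- library, and only replicate 3 lay within the range of the controls. Mean levels were 53.3 ± 13.3 and 33.1 ± 8.49 CPM (SD, n = 4 each), a 1.61-fold difference. The log2 fold change of 0.69 (SE 0.25, 95% interval 0.14 to 1.24) had an unadjusted p of 0.0197 and did not pass after adjustment over all genes (adjusted p = 0.474). It was above 0 in both number series, at 0.46 and 0.90. Without Mll1-/- replicate 3 the groups no longer overlapped, which the choice of this library fixes in advance. With it left out for every gene, 9.86% of tested genes had no overlap, a share without such a choice. The log2 fold change of *Mllt3* without this library was 0.84 with an adjusted p of 0.210, while 45 of 17150 genes (0.262%) were called. Over the 14 alternatives *Mllt3* ranged from 0.55 to 0.85 and its adjusted p from 0.172 to 0.705, so that a higher level of *Mllt3* was not established by any of them. The goblet marker sum was also higher in most Mll1-/- libraries, but its libraries were not ordered as those of *Mllt3*. *Muc2*, *Tff3*, *Clca1* and *Spdef* were highest in Mll1-/- replicate 3, the lowest Mll1-/- library for *Mllt3*. The remaining goblet marker, *Fcgbp*, was highest in Mll1+/- replicate 1. The part of goblet markers in the *Mllt3* values was not tested.

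*Mllt1* (ENSMUSG00000024212, chromosome 17, 56892612 to 56935388, minus strand) was the less abundant of the pair in CPM and varied without regard to genotype. It had 11.3, 7.18, 16.9 and 17.5 CPM in the Mll1-/- and 12.6, 19.8, 11.6 and 7.23 CPM in the Mll1+/- libraries. Both genotypes spanned nearly the same range. Means were 13.2 ± 4.91 and 12.8 ± 5.19 CPM (SD, n = 4 each) with a log2 fold change of 0.05 (SE 0.37, 95% interval -0.79 to 0.89, adjusted p = 0.981). Within the number series the difference had opposite signs, -0.77 in the first and 0.87 in the second. The pooled value near 0 therefore averages a pair of unlike differences, each of 2 libraries against 2.

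*Mllt6* and *Mllt10* encode AF17 and AF10, paralogous PHD finger proteins that bind *Dot1l*, and AF10 is needed for the higher methylation states of lysine 79. *Mllt10* (ENSMUSG00000026743, chromosome 2, 18055237 to 18212388, plus strand) had 50.0, 53.8, 81.0 and 74.3 CPM in the Mll1-/- and 55.3, 48.4, 48.5 and 69.7 CPM in the Mll1+/- libraries. Its highest values came from Mll1-/- replicates 3 and 4 and Mll1+/- replicate 4, all of the second number series. The means were 64.8 ± 15.2 and 55.5 ± 10.0 CPM (SD, n = 4 each), with a log2 fold change of 0.22 (SE 0.20, 95% interval -0.23 to 0.68, adjusted p = 0.786). Of its exonic bases 12.7% also lie in exons of *Dnajc1*, and 11.2% of its 31-base words occur in other genes, so its counts are less certain than those of the other 9. *Mllt6* (ENSMUSG00000038437, chromosome 11, 97663414 to 97685463, plus strand) had 21.1, 16.5, 29.4 and 25.3 CPM in the Mll1-/- and 24.0, 21.0, 14.7 and 21.0 CPM in the Mll1+/- libraries. The groups overlapped widely, and Mll1-/- replicate 3 was again the highest library. The log2 fold change of *Mllt6* was 0.19 (SE 0.24, 95% interval -0.34 to 0.73, adjusted p = 0.853), with -0.26 in the first and 0.62 in the second number series.

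*Aff1* and *Aff4* encode the alternative scaffolds of the complex, to which the other subunits attach. *Aff4* (ENSMUSG00000049470, chromosome 11, 53350833 to 53421830, plus strand) had 53.6, 79.1, 39.6 and 67.1 CPM in the Mll1-/- libraries, whereas the 4 Mll1+/- libraries lay close together at 68.1, 63.6, 61.6 and 60.8 CPM. The Mll1-/- values lay on both sides of the controls. Their means were 59.9 ± 17.1 and 63.5 ± 3.28 CPM (SD, n = 4 each), with a log2 fold change of -0.09 (SE 0.20, 95% interval -0.55 to 0.37, adjusted p = 0.934). Without Mll1-/- replicate 3, its lowest library, the log2 fold change was 0.07. *Aff1* (ENSMUSG00000029313, chromosome 5, 103692374 to 103855322, plus strand), known from the most frequent MLL translocation of infant leukaemia, had 28.5, 21.7, 25.9 and 18.7 CPM against 17.4, 24.0, 16.8 and 25.4 CPM. High and low libraries occurred in both genotypes. Its log2 fold change was 0.18 (SE 0.22, 95% interval -0.32 to 0.68, adjusted p = 0.853) and stayed above 0 in both number series, at 0.28 and 0.09.

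*Ell* and *Ell2* encode elongation factors that reduce pausing of RNA polymerase II. *Ell* (ENSMUSG00000070002, chromosome 8, 70539457 to 70592858, plus strand) had the fewest counts of the 10 genes, 47 to 113 per library. It lay at 3.84, 5.73, 2.54 and 7.42 CPM in the Mll1-/- and at 5.74, 6.40, 5.53 and 4.13 CPM in the Mll1+/- libraries. The Mll1-/- libraries held both its lowest and its highest value. The log2 fold change of -0.16 had an SE of 0.37 and a 95% interval that reached down to a 0.500-fold level and up to a log2 fold change of 0.68 (adjusted p = 0.933), and it was 0.05 without Mll1-/- replicate 3. *Ell2* (ENSMUSG00000001542, chromosome 13, 75706757 to 75772364, plus strand), which is induced in secretory cells such as plasma cells, had 21.5, 10.4, 11.3 and 20.8 CPM against 26.4, 20.8, 14.3 and 14.7 CPM. High and low libraries of both genotypes interleaved. The log2 fold change was -0.25 (SE 0.32, 95% interval -0.98 to 0.47, adjusted p = 0.858), with -0.63 in the first and 0.08 in the second number series.

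*Eaf1* encodes an ELL-associated factor that stimulates the activity of ELL proteins (ENSMUSG00000021890, chromosome 14, 31494399 to 31509858, plus strand). It had the largest difference towards lower levels among the 10 genes. Values were 25.4, 15.4, 7.09 and 12.8 CPM in the Mll1-/- and 22.8, 28.2, 21.0 and 21.9 CPM in the Mll1+/- libraries. Of the Mll1-/- libraries 3 lay below every control and replicate 1 lay among them. The means were 15.2 ± 7.67 and 23.5 ± 3.23 CPM (SD, n = 4 each), with a log2 fold change of -0.63 (SE 0.35, 95% interval -1.41 to 0.15, adjusted p = 0.631). The difference was below 0 in both number series, at -0.35 and -1.13. Without Mll1-/- replicate 1, the only one among the controls, the groups no longer overlapped, which this choice fixes in advance. With the same library left out for every gene, 10.0% of tested genes had no overlap, a share without such a choice. The mean of the remaining 3 Mll1-/- libraries was 11.8 ± 4.23 CPM, with an adjusted p of 0.378 for the difference. Without replicate 3, which held the lowest value, the log2 fold change was -0.39 with an adjusted p of 0.738. The size of the difference thus depended on which of the 4 Mll1-/- mice were included. Exons of *Mettl6* cover 2.53% of the exonic bases of *Eaf1*.

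**Figure D2:**
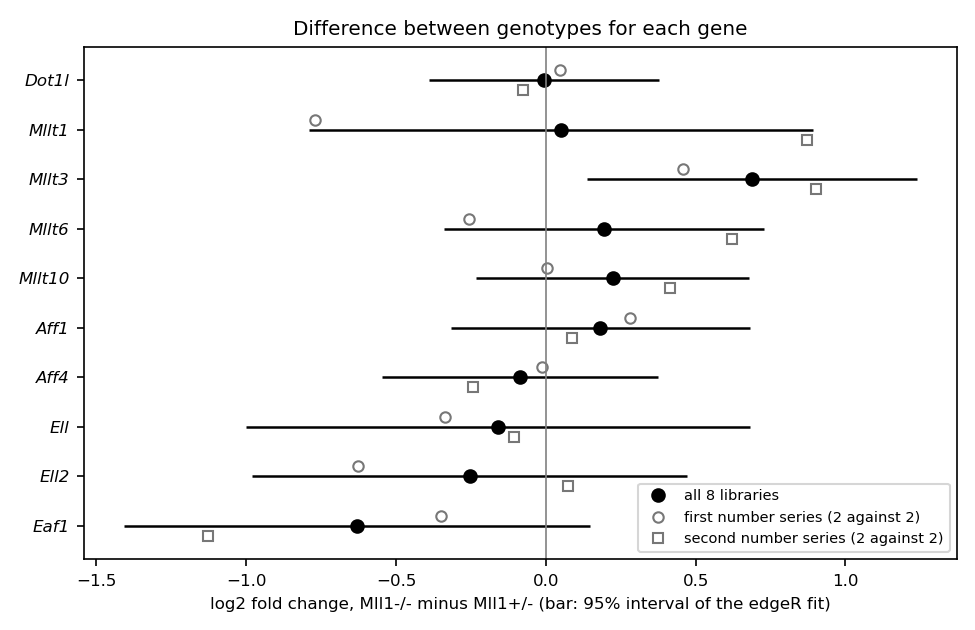
Log2 fold change of each gene between the libraries labelled Mll1-/- and Mll1+/- (x axis). Filled circles with bars are the edgeR estimate over 8 libraries with its 95% interval, and open symbols the difference within the first (circles) and second (squares) number series. Only the interval of *Mllt3* lies off 0, before any adjustment, and the 2 series of *Mllt1* fall on opposite sides of 0.

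The lowest and highest values were spread unevenly over the mice. Mll1-/- replicate 3 held the lowest value of 4 of the 10 genes (*Dot1l*, *Aff4*, *Ell* and *Eaf1*) and the highest of 2 (*Mllt6* and *Mllt10*), while no other library held the lowest value of more than 2. The directions reported for *Dot1l*, *Mllt1*, *Aff4* and *Ell* turned without this library, and none of them was past the threshold with or without it. Summed over the 10 genes, the level was 268 to 336 CPM in the Mll1-/- and 243 to 300 CPM in the Mll1+/- libraries.

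Levels of different genes can be compared only per length, because the number of reads grows with it. Exon lengths run from 3108 bases in *Ell* to 13450 in *Aff4*, and 9 of the 10 genes exceed the median of 3321 bases over tested genes. In CPM per kilobase of exon, *Mllt10* was the highest at 10.2 ± 2.19 (SD, n = 8), followed by *Aff4* at 4.59 ± 0.858. *Mllt10* exceeded *Aff4* in 8 of 8 libraries with a median of 1.99-fold, and the ranges did not touch. This was the only step in the order at which neighbours were separate. *Mllt1* at 3.61 ± 1.30, *Mllt3* at 3.60 ± 1.25 and *Eaf1* at 3.52 ± 1.28 CPM per kilobase could not be ranked, since the first exceeded the second in only 3 of 8 libraries and the second the third in 3 of 8. *Mllt6* followed at 2.90 ± 0.631, *Dot1l* at 2.64 ± 0.233 and *Aff1* at 2.36 ± 0.461, with overlapping ranges. *Ell2* at 1.78 ± 0.576 and *Ell* at 1.66 ± 0.503 were the lowest. Compared with all tested genes these are middling levels, with 72.3% of genes below *Mllt10*, 40.8% below *Dot1l* and 29.9% below *Ell*. Division by the exon length of all annotated transcripts understates a gene that is expressed from a short isoform.

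**Figure D3:**
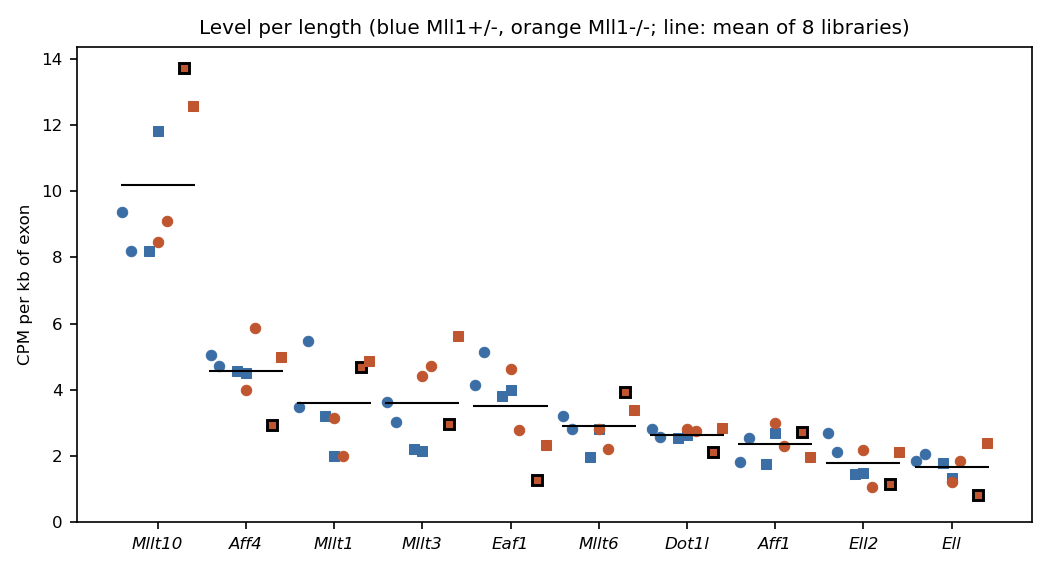
Level of the 10 genes in CPM per kilobase of exon (y axis), ordered by the mean over 8 libraries (line). Points are libraries, Mll1+/- in blue and Mll1-/- in orange, with circles for replicates 1 and 2, squares for replicates 3 and 4 and a black edge for Mll1-/- replicate 3. *Mllt10* lies above all others, and the ranges of the other 9 overlap with those of their neighbours.

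Each pair of related genes was also compared within libraries, where the scaling between libraries has no effect. The choice of paralog is of interest because the proteins of a pair can take the same place in the machinery. Ratios were taken per length, and the genotypes were compared by an exact two-sided permutation test over the 70 assignments of 8 libraries, adjusted over the 4 ratios. *Mllt10* exceeded *Mllt6* in all 8 libraries by 2.91-fold to 4.19-fold, and the log2 ratio differed by 0.02 between genotypes (exact p = 0.829, adjusted p = 0.943). *Aff4* exceeded *Aff1* in all 8 libraries too, by 1.08-fold to 2.76-fold. The smallest of these values came from Mll1-/- replicate 3. The log2 ratio of *Aff4* to *Aff1* was 0.80 ± 0.64 in the Mll1-/- and 1.12 ± 0.35 in the Mll1+/- libraries (SD, n = 4 each), a difference of -0.32 (exact p = 0.371, adjusted p = 0.743).

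For the YEATS pair the ratio of *Mllt3* to *Mllt1* was 1.41, 2.37, 0.635 and 1.16 in the Mll1-/- libraries and 1.04, 0.554, 0.684 and 1.07 in the Mll1+/- libraries. Mll1-/- replicates 1, 2 and 4 had the 3 highest ratios of all and replicate 3 was among the lowest. The mean log2 ratio was 0.32 ± 0.78 and -0.31 ± 0.47 (SD, n = 4 each), and the difference of 0.63 did not pass the permutation test (exact p = 0.171, adjusted p = 0.686). It was 1.27 within the first number series and 0.00 within the second. The ratio of *Ell2* to *Ell* ranged from 0.575 to 1.78 in the 8 libraries, with a difference of -0.03 between genotypes (exact p = 0.943, adjusted p = 0.943). Neither ELL gene thus predominated. In 5 of 8 libraries *Ell2* was the higher of the pair.

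**Figure D4:**
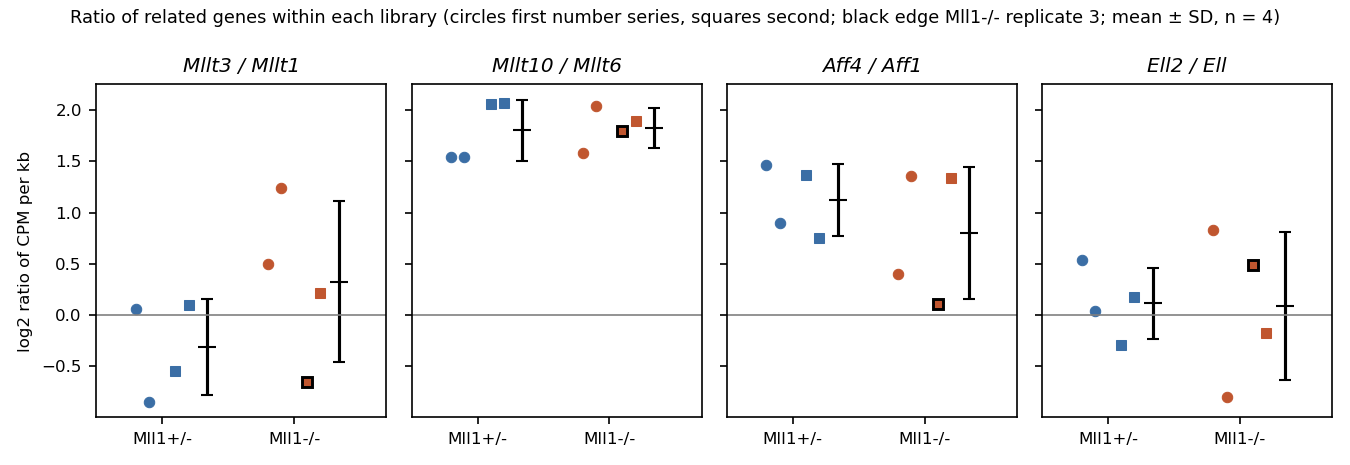
Log2 ratio of CPM per kilobase (y axis) of *Mllt3* to *Mllt1*, *Mllt10* to *Mllt6*, *Aff4* to *Aff1* and *Ell2* to *Ell* in each library, by genotype. Bars give the mean ± SD of 4 libraries, and a black edge marks Mll1-/- replicate 3. *Mllt10* exceeds *Mllt6* and *Aff4* exceeds *Aff1* in every library, and the genotypes overlap in all 4 panels.

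Other genes were examined through 9 lists with 84 genes, of which 76 were tested. Some lists hold genes that act with *Dot1l* and the super elongation complex. The others hold further MLL fusion partners, leukaemia targets of the fusions, and immediate early and heat shock genes. None of the 76 was called by edgeR. An unadjusted p under 0.05 was reached by 7, all with higher levels in the Mll1-/- libraries. Of these 7, 4 were among the 13 tested immediate early and heat shock genes and 1 was a further fusion partner. In 3 of the 76 the genotypes did not overlap, *Ssrp1* and *Jun* among them. DESeq2 called 1 of the 76 genes, *Atf3*. Against the shares over all tested genes given above, the pooled count under 0.05 was close to the background (9.15%). The count without overlap was below it (6.28%).

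Paralogs of the complex outside the 10 genes were low in these libraries. *Aff2* did not exceed 0.0703 CPM in 7 libraries and had 26 counts (1.68 CPM) in Mll1+/- replicate 4, a value singled out after it was seen. *Aff3* did not exceed 0.141 CPM in any library, which is below the level of 3 counts (0.162 to 0.241 CPM). *Eaf2* lay at 0.00 to 1.38 CPM in the Mll1-/- and 0.06 to 0.91 CPM in the Mll1+/- libraries and was too low to be tested. *Ell3* was the only one of 4 paralogs tested, at 1.24 ± 0.83 and 1.05 ± 0.45 CPM (SD, n = 4 each), and 65.6% of its exonic bases are shared with *Serinc4*.

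P-TEFb is the kinase that the complex delivers to paused polymerase. All 8 genes of this list were tested, with 5 above and 3 below 0 and a median log2 fold change of 0.05. *Cdk9*, the kinase subunit, also varied little, with 24.6 ± 2.28 CPM in the Mll1-/- and 22.9 ± 0.51 CPM in the Mll1+/- libraries (SD, n = 4 each; log2 fold change 0.10, adjusted p = 0.889). Its cyclin partner *Ccnt1* had a log2 fold change of -0.09 (adjusted p = 0.926). *Hexim1*, which holds P-TEFb inactive in the 7SK particle, had 27.7, 26.8, 46.8 and 47.5 CPM in the Mll1-/- and 22.9, 29.5, 34.7 and 20.1 CPM in the Mll1+/- libraries, with a log2 fold change of 0.47 (adjusted p = 0.640) and with both high values in the second number series.

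The 13 genes of pausing and elongation factors had a median log2 fold change of 0.24, with 8 above and 5 below 0. *Supt5*, a subunit of the pausing factor DSIF, was at 0.24 (adjusted p = 0.810), and *Nelfb*, a subunit of the negative elongation factor, at 0.01 (adjusted p = 0.996). *Nelfe*, another subunit of the same factor, had 42.7 ± 13.4 and 28.4 ± 2.94 CPM (SD, n = 4 each), with a log2 fold change of 0.59 (unadjusted p = 0.0282, adjusted p = 0.494). The other subunits on the list, *Nelfa* and *Nelfcd*, lay at 0.63 and 0.50 (adjusted p = 0.556 and 0.667). *Ssrp1*, a subunit of the histone chaperone FACT, had 143 to 187 CPM in the Mll1-/- and 129 to 137 CPM in the Mll1+/- libraries (log2 fold change 0.26, adjusted p = 0.550). The choice to name *Nelfa*, *Nelfcd* and *Ssrp1* followed from their values.

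The PAF1 complex travels with elongating polymerase and is bound by the YEATS proteins. Its 6 genes had a median of 0.15, with 5 above and 1 below 0 and a range from -0.26 to 0.51. *Paf1* was at 0.17 (adjusted p = 0.887) and *Cdc73* at 0.01 (adjusted p = 0.992). Monoubiquitination of histone H2B stimulates *Dot1l*, and the 6 genes of that list had a median of 0.00, with 3 above and 3 below 0. *Rnf20* and *Rnf40*, which form the ubiquitin ligase, had log2 fold changes of 0.05 and 0.09 (adjusted p = 0.938 and 0.937). The little elongation complex contains ELL proteins but serves small nuclear RNA genes. Its 3 genes lay below 0 with a median of -0.16. *Ice1* had 31.6, 41.2, 10.5 and 31.7 CPM in the Mll1-/- and 35.4, 35.4, 37.0 and 38.6 CPM in the Mll1+/- libraries (log2 fold change -0.35, adjusted p = 0.810), and Mll1-/- replicate 3 was again far below the rest.

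Another 21 genes are known as MLL fusion partners from outside this machinery. Of these 9 lay above and 12 below 0, with a median of -0.04. *Afdn*, a protein of cell junctions and one of the frequent partners, had a log2 fold change of -0.16 (adjusted p = 0.745). *Sept9*, a cytoskeletal septin, had 16.1, 12.3, 17.7 and 14.9 CPM against 7.72, 9.07, 12.7 and 10.6 CPM, with a log2 fold change of 0.61 (unadjusted p = 0.0280, adjusted p = 0.494). Only its lowest Mll1-/- and its highest Mll1+/- library overlapped. Leukaemia targets of the fusions had 5 of 10 genes tested, 0 above and 5 below 0, with a median of -0.14 and 0 with an unadjusted p under 0.05. *Meis1*, a cofactor of Hox proteins, lay at 0.216 to 1.74 CPM in the Mll1-/- and 0.00 to 0.359 CPM in the Mll1+/- libraries and was too low to be tested.

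Immediate early and heat shock genes are transcribed by rapid release of paused polymerase, for which the super elongation complex is known. Of 13 genes 8 lay above and 5 below 0, with a median of 0.15. An unadjusted p under 0.05 was reached by 4, compared with 9.15% of all tested genes, and 0 passed the threshold in the edgeR fit. Whether the complex has a part in these levels was not tested. Crypts were dissociated into single cells and sorted before RNA was taken, and the part of this handling was not tested either. *Atf3* had 271, 155, 139.5 and 299 CPM in the Mll1-/- and 130, 111, 85.3 and 140.2 CPM in the Mll1+/- libraries. Its log2 fold change of 0.89 (SE 0.27, unadjusted p = 0.00886, adjusted p = 0.384) was the largest of the 76 genes. *Jun* had 182, 179, 205 and 267 CPM against 151, 148, 128 and 168 CPM, without overlap, and a log2 fold change of 0.48 (adjusted p = 0.417). *Junb* and *Ier2* followed at 0.63 and 0.62 (adjusted p = 0.449 and 0.506). *Fos* lay at 425 ± 47.8 and 350 ± 63.7 CPM (SD, n = 4 each; log2 fold change 0.28, adjusted p = 0.629). The heat shock gene *Hspa1a* was low, at 0.460 to 5.52 CPM, with a log2 fold change of 0.04 (adjusted p = 0.992), and its counts may be divided with its near-identical neighbour *Hspa1b*.

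**Figure D5:**
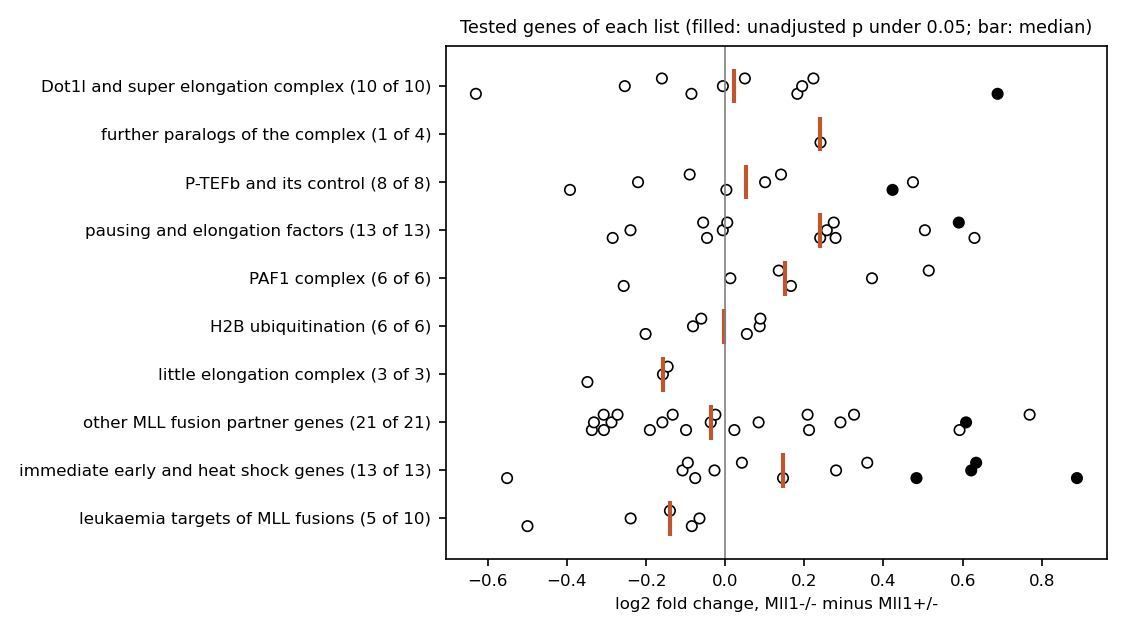
Log2 fold change between the libraries labelled Mll1-/- and Mll1+/- (x axis) of each tested gene, by list, with the number tested of the number listed. Filled points have an unadjusted p under 0.05 and the vertical bars are medians. No gene is past the adjusted threshold in the edgeR fit, and the 10 genes of the top row spread from -0.63 to 0.69.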

How the data were processed

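Alignment was to mm10 with GSNAP, and the authors deposited raw read counts per gene made with featureCounts 1.6.3 (Ensembl release 92, minimum mapping quality 1, no strand setting), so that reads of overlapping genes on opposite strands cannot be told apart. They also deposited a signal table of counts divided by a size factor of each library (DESeq2 1.22.2), which was used here only to find the genes by symbol. Spike-in transcripts (92, with 40 counts in all) were left out.

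The counts were filtered (filterByExpr, at least 10 counts and 15 in total), scaled by TMM and tested with the robust quasi-likelihood test of edgeR 4.0.16 (R 4.3.3) with genotype as the only term, with Benjamini-Hochberg adjustment over all tested genes. Standard errors are the fitted difference divided by the root of its F, and the common biological coefficient of variation was 0.435. Within-series differences used log2(CPM + 0.5). The labels name animals, so each library is 1 mouse. The 4-against-4 exact test cannot give a p below 0.0286. Tests were tested on simulated data. Depth was 14468751 to 16847793 counts, and without molecular identifiers the counting errors cover sampling of reads only. Alternatives were DESeq2 size factors, the DESeq2 1.42.0 Wald test, 2 other filters, a length offset (loess, span 0.3), a block of the 2 number series, and leaving out each library.

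The 10 genes and the lists were chosen with earlier results of these data known. Named were the 10 genes, *Kmt2a*, *Ctnnb1*, a fixed set of list genes by role, list genes with an unadjusted p under 0.05, and the 3 genes nearest to *Dot1l*. A list gene under this rule stayed in the fit and the counts and is not reported here. No sequence is printed, since counts per gene bear on none.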

Additional observations from a re-analysis of the deposited data

Results flagged for a closer look

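Values were compared within each genotype for 1 library far from the other 3 of its group (Dixon's criterion for 4 values), and 6 of 86 groups met this. Chance gives about 1 in 20 for independent groups. These groups are not independent, since *Utp20* was picked by its values in the same libraries. *Dot1l* had 18.6 CPM in Mll1-/- replicate 3, against 24.0 to 24.8 CPM in the other Mll1-/- libraries. *Utp20*, which was picked for its likeness to *Dot1l*, had 31.6 CPM in the same library against 39.4 to 40.9 CPM, and 42.1 CPM in Mll1+/- replicate 1 against 38.6 to 38.9 CPM. *Kmt2a* had 64.9 CPM in Mll1+/- replicate 2, against 48.9 to 51.2 CPM. In the same library *Eaf2* had 0.914 CPM, against 0.0646 to 0.180 CPM, a range at or below the level of 3 counts. *Rnf40* had 11.8 CPM in Mll1+/- replicate 4, against 16.2 to 16.8 CPM. These values are given as measured, and no cause was tested.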

How the results depend on the processing

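No alternative called any of the 10 genes. Their median log2 fold change lay between -0.08 and 0.10, and 132 of 140 recomputed log2 fold changes kept their direction and their side of the threshold. The other 8 turned, all without passing it: *Dot1l* to 0.00 (0.0029) with the length offset, 0.024 without Mll1+/- replicate 1 and 0.082 without Mll1-/- replicate 3, *Mllt1* to -0.092 without Mll1-/- replicate 3, -0.11 without Mll1-/- replicate 4 and -0.15 without Mll1+/- replicate 4, and *Aff4* to 0.069 and *Ell* to 0.053 without Mll1-/- replicate 3. Leaving out 1 library, *Dot1l* ranged from -0.043 to 0.082, *Mllt1* from -0.15 to 0.34, *Aff4* from -0.25 to 0.069, *Ell* from -0.43 to 0.053, *Mllt3* from 0.55 to 0.85, *Mllt6* from 0.055 to 0.33, *Mllt10* from 0.095 to 0.35, *Aff1* from 0.075 to 0.29, *Ell2* from -0.44 to -0.056 and *Eaf1* from -1.003 to -0.39. The count of genes without overlap was 0 and, leaving out 1 library, 0 to 1. The count over all genes was unstable: 14 became 406 with the DESeq2 Wald test, 0 with a filter on a total of 10 counts, 34 with at least 10 counts in every library, 0 with the block of number series, and 0 to 45 leaving out 1 library (45 without Mll1-/- replicate 3, 2 without Mll1-/- replicate 1 and 0 without any other). Genes with an unadjusted p under 0.05 numbered 1505 of 16445 in the main fit and 1642 of 16445 with the block. With the filter on the total they numbered 2306 of 25988, where more genes were tested. The cause of the shifts in the count of called genes was not tested. Leaving out 1 library, the difference of the log2 ratio ranged from -0.064 to 0.11 for *Mllt10* to *Mllt6*, from -0.28 to 0.26 for *Ell2* to *Ell*, from 0.33 to 0.96 for *Mllt3* to *Mllt1* and from -0.50 to -0.09 for *Aff4* to *Aff1*, with no adjusted p under 0.229. No paired analysis was possible because the labels give the mice of the 2 genotypes no shared numbers. A difference of more than 2 standard errors, that of *Mllt3*, did not pass the threshold, and levels near 3 counts were beyond this depth.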
